A study of Mus musculus with 16 samples.

Results

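The proteasome subunit genes were the 31 mouse genes for the standard alpha and beta subunits of the core particle and for most subunits of the regulatory particle, taken from a fixed list of gene symbols. Each was matched to the window of 5000 bp around a transcription start site (TSS) whose midpoint lay nearest its own TSS, at most 650 bp away. All 31 genes had such a window, 31 distinct windows of the 38053 in the deposited table, which name 25479 genes in all, 19046 of them protein-coding. Of 127646 deposited accessible regions, 47 lay wholly inside these windows, and 1 more reached in partly and was not used.

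Chromatin accessibility had been profiled by ATAC-seq, a method whose transposase cuts and tags open DNA, in mouse embryonic stem cells (mESCs) of the genotype FOXD3-iKO kept in L2i medium. The treated cells had received tamoxifen (4HT), which induces depletion of the forkhead transcription factor FOXD3, and the controls ethanol (EtOH), with a treatment time of 24 h in both. Cells of both treatments were sorted on DAPI-labelled DNA content into fractions labelled G1, ES, LS and G2, and the labels do not spell out ES and LS. The 4HT and EtOH cells shared the FOXD3-iKO genotype, and no cells of another genotype received 4HT. Effects of 4HT itself therefore cannot be told apart from those of FOXD3 depletion. The 16 libraries, 2 per group, are represented by 8 deposited columns, 1 per treatment and fraction, which were read as pooled. No value below therefore has an SD between replicates, and p-values reflect how pooled columns, rather than cultures, vary.

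The proteasome is the protease of the ubiquitin system. Its core particle is a barrel of outer rings of alpha subunits, which gate the entry, and inner rings of beta subunits, of which Psmb5, Psmb6 and Psmb7 encode the catalytic ones. The regulatory particle caps the barrel: a base with a ring of ATPases (Psmc genes) unfolds the substrate, and a lid removes ubiquitin chains through the deubiquitinase encoded by Psmd14. In mammals the genes are transcribed in concert in all cell types, and their joint induction when proteasome activity falls runs through the factor NFE2L1 at antioxidant response elements. Human embryonic stem cells are known for high proteasome activity.

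From the values, signal was read as coverage in CPM, scaled to the depth of each column and averaged over covered bases. On this reading the smallest value of each column is the worth of 1 read. Depth, computed from that value, was 6.78 to 11.1 M reads in the 4HT columns and 8.17 to 11.2 M in the EtOH columns. Foxd3 itself had a window signal of 0.243, 0.158, 0.141 and 0.169 in 4HT cells in G1, ES, LS and G2, against 0.153, 0.195, 0.155 and 0.110 in EtOH cells (log2 difference 0.10, SE 0.08, limma adjusted p 0.970). The labels do not say which piece of the gene is removed, so this value does not check the depletion. Markers of the labelled cell type stood high: the median level of 12 naive pluripotency genes was 1.87 times the 1-read value, with 10 above the median of protein-coding genes (Pou5f1 2.65, Klf2 2.73, but Esrrb 1.25). Of 9 fibroblast genes, 2 lay above that median (list median 1.19), and of 6 primitive endoderm genes, 1 (list median 1.18). No marker stood at 0, since a window that holds a read cannot show less than 1 read.

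Promoter sequence was available from RefSeq (GRCm38.p6, the assembly also named mm10) for 25 of the 31 genes, as 250 bases upstream and 50 downstream of the TSS. The 200 bases upstream of 6 of them are printed 5′ to 3′ on the strand of the gene. Psmd8, Psmb3 and Psma2 are shown because their accessible regions over the TSS had the highest levels among genes with a promoter sequence. Psmb6, Psmd11 and Psmc6 are examples of the 6 promoters with 3 kinds of motif, the most found; Psma2 is another, and Psmc5 and Psmd12 tie with them and are not printed. Capitals mark matches to 7 short motifs on either strand: the antioxidant response element core TGACNNNGC, the CCAAT box CCAAT, the GC box GGGCGG, the ETS site CCGGAAG, the nuclear respiratory factor 1 motif GCGCATGC (a factor distinct from NFE2L1), the YY1 motif AAGATGGCG and the ZNF143 motif ACTACAA. The stretches are chr7:29180674-29180873 (minus strand) for Psmd8, chr11:97703234-97703433 (plus) for Psmb3, chr13:14613042-14613241 (plus) for Psma2, chr11:70525157-70525356 (plus) for Psmb6, chr11:80428415-80428614 (plus) for Psmd11 and chr14:45329624-45329823 (plus) for Psmc6.
Psmd8: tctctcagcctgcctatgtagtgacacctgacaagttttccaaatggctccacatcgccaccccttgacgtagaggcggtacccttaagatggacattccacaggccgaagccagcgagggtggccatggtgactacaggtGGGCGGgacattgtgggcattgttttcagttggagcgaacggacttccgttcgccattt
Psmb3: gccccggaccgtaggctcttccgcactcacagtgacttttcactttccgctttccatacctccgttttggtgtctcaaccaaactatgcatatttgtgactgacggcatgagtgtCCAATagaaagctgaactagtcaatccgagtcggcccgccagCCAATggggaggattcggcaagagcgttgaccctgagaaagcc
Psma2: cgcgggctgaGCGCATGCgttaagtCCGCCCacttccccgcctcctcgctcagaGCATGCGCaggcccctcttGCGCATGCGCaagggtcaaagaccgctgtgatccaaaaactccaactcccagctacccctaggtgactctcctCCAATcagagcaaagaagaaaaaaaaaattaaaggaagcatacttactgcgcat
Psmb6: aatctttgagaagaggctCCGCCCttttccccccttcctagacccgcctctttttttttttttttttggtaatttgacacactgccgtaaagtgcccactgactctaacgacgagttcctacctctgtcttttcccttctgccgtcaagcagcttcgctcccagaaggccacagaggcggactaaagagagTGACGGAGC
Psmd11: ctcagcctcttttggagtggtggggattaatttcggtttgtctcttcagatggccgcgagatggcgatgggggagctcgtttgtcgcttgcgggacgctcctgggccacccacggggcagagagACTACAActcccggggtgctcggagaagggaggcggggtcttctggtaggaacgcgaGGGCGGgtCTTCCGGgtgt
Psmc6: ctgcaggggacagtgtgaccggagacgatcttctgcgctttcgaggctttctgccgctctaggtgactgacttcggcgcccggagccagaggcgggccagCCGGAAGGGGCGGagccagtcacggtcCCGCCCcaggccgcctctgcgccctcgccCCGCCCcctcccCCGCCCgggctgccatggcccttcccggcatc

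The 6 promoters differ in what they hold. Psmd8, a lid subunit, has a single match, a GC box 59 to 54 bases upstream of the TSS. Psmb3, a structural beta subunit, has CCAAT boxes at -85 and -43 and none of the other motifs. Psma2, an alpha subunit, has 4 matches to the nuclear respiratory factor 1 motif, of which the pair that starts at -127 and -125 overlaps on opposite strands in a single palindrome. Psmb6, which encodes the caspase-like catalytic subunit, has an antioxidant response element core that ends at the base before the TSS. Psmc6, an ATPase of the base, has an ETS site that ends at -94 and a GC box that begins at -93, so they abut. Its match to the antioxidant response element core lies further upstream, at -227 to -219, outside the printed stretch.

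The ETS site had the widest gap, in percentage points, to other promoters. It was found in 9 of the 25 proteasome promoters (36%), against 12.5% of 15592 promoters of protein-coding genes and 8.86% of all 32851 promoters. All 9 belong to the 14 promoters of the regulatory particle, and 0 to the 11 of the core particle: the ATPase genes Psmc1, Psmc2 and Psmc6, the base genes Psmd2 and Psmd4, and the lid genes Psmd6, Psmd11, Psmd12 and Psmd13. The GC box was found in 15 promoters (60%, against 48.5% of protein-coding promoters) and the CCAAT box in 10 (40%, against 39.1%). The antioxidant response element core, the motif of NFE2L1, was found in 4 (16%, against 13.2%): Psmb5, Psmb6, Psmc6 and Psmd12. The nuclear respiratory factor 1 motif was in Psma2 and Psmc5 (8%, against 3.83%), the YY1 motif in Psmb6 and Psmc5 (8%, against 2.12%), and the ZNF143 motif in Psmd11 (4%, against 3.89%). A match says only that the letters are present. No test was made of these shares.

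**Figure D1:**
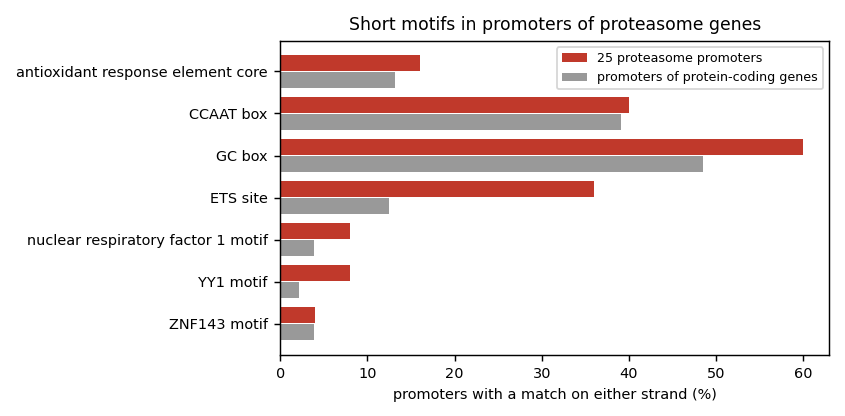
Share of promoters (percent, horizontal axis) that hold a match to each of 7 motifs on either strand, for 25 proteasome promoters (upper bars) and promoters of protein-coding genes (lower bars). The ETS site has 36% against 12.5%, while the CCAAT box has 40% against 39.1%.

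The base composition of these promoters was ordinary in GC content and high in CpG. The median GC content was 56.7% in proteasome promoters and 57% in those of protein-coding genes. The median ratio of observed to expected CpG was 0.799 in proteasome promoters and 0.611 in protein-coding promoters, with 20 of 25 proteasome promoters above the protein-coding median. Psma6 had the lowest ratio, 0.185.

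The TSS windows of most proteasome genes carried more signal than the median protein-coding gene. A level is the mean, over the 8 columns, of the signal in multiples of the 1-read value. The 31 windows had a median level of 1.596 (quartiles 1.49 and 1.78), against 1.35 (1.199 and 1.61) for the 17947 protein-coding windows read in every column and 1.26 for all windows. Of the 31, 28 lay above the protein-coding median, 15 above the upper protein-coding quartile and 0 below the lower one. Every one of the 31 windows had a read in all 8 columns. A window is 5000 bp long and mostly holds background, so the multiples are small and differences between genes are compressed.

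The excess was present in each of the 8 columns, at different sizes. The median proteasome window stood at 1.345, 1.61, 1.74 and 1.63 times the 1-read value in 4HT cells in G1, ES, LS and G2, against 1.695, 1.48, 1.54 and 1.82 times in EtOH cells. The protein-coding medians were 1.25, 1.36, 1.44 and 1.33 in 4HT cells and 1.365, 1.305, 1.305 and 1.45 in EtOH cells. The ratio of proteasome to protein-coding median ran from 1.08 in 4HT G1 to 1.25 in EtOH G2, the columns with the lowest and the highest depth; the part of depth was not tested. Between 21 and 29 of the 31 members lay above the protein-coding median of a column.

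The medians of the 5 classes of subunit lay close together. The median level was 1.72 for the 7 alpha genes, 1.596 for the 7 beta genes, 1.52 for the 6 ATPase genes, 1.68 for the 3 other base genes and 1.68 for the 8 lid genes. The spread within each class was wider than the spread between them. Lid genes held both ends of the range.

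Among the subunits that do the chemistry, levels were spread as in the rest. Of the catalytic beta genes, Psmb6 (caspase-like) stood at 1.87, Psmb5 (chymotrypsin-like) at 1.58 and Psmb7 (trypsin-like) at 1.55. Psmd14, the deubiquitinase, stood at 1.36, just above the protein-coding median, and Psmd4, a ubiquitin receptor of the base, at 1.68. Of the ATPase genes, Psmc6 had the highest level, 1.86, and the other 5 lay between 1.33 and 1.59. Of the alpha genes, Psma2 had the highest, 1.94, in a window shared with a neighbouring gene. The 2 scaffold genes of the base were apart, with Psmd1 at 1.81 and Psmd2 at 1.43.

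**Figure D2:**
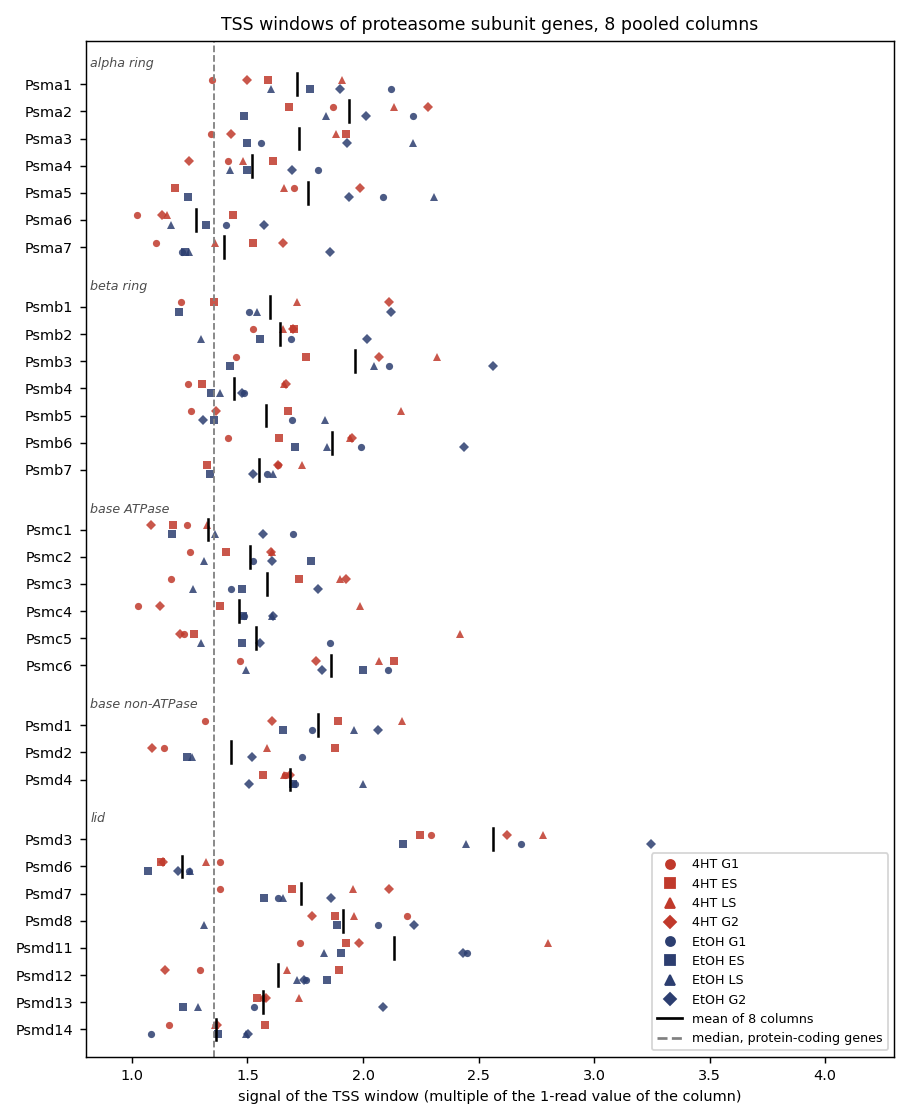
Signal of each proteasome TSS window as a multiple of the 1-read value (horizontal axis), with 1 symbol per pooled column (red 4HT, blue EtOH; circle G1, square ES, triangle LS, diamond G2) and a bar at the mean of the 8 columns. The dashed line is the protein-coding median of 1.35, and the means of 28 of 31 genes lie to its right.

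Psmd3, which encodes a lid subunit, had the highest level, 2.56 times the 1-read value (chromosome 11, window 98679905 to 98684904, mm10). Its signal was 0.338, 0.230, 0.251 and 0.296 CPM in 4HT cells in G1, ES, LS and G2, against 0.269, 0.259, 0.299 and 0.291 CPM in EtOH cells. The lowest of its 8 columns, EtOH in ES, was at 2.17 times the 1-read value, and the groups overlapped.

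Psmd11, whose product is a lid subunit that helps join lid and base, came next at 2.13. Its signal was 0.255, 0.198, 0.253 and 0.223 CPM in 4HT cells and 0.246, 0.227, 0.224 and 0.218 CPM in EtOH cells, in the same order of fractions. Psmb3 followed at 1.97, with 0.214, 0.180, 0.209 and 0.233 CPM in 4HT cells and 0.212, 0.16997, 0.251 and 0.229 CPM in EtOH cells. The 4HT and EtOH values of both genes overlapped. As multiples of the 1-read value, the columns of Psmd11 and Psmb3 overlapped as well, so the order of these neighbours is not set beyond their spread.

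The lowest levels were those of Psmd6, a lid subunit, at 1.22, Psma6, an alpha subunit, at 1.28, and Psmc1, an ATPase, at 1.33. Psmd6 had 0.204, 0.115, 0.119 and 0.128 CPM in 4HT cells in G1, ES, LS and G2, against 0.125, 0.128, 0.153 and 0.107 CPM in EtOH cells. Psma6 had 0.151, 0.147, 0.104 and 0.127 CPM in 4HT cells and 0.141, 0.157, 0.143 and 0.140 CPM in EtOH cells. These 3 genes were the only members below the protein-coding median. Psmd6 and Psma6 were below the minimum level of 1.3 set for testing, and Psmc1 was the member just above it.

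Nearly every member had an accessible region directly over its TSS. This was so for 29 of 31 genes (93.5%), against 11309 of 18674 protein-coding windows (60.6%). These 29 regions were all read in every column, with a median level of 2.38, against 1.85 for the regions over the TSSs of protein-coding genes, and 20 of the 29 lay above 1.85. They were 404 to 1541 bp wide, with a median of 644 bp, against 827 bp for protein-coding genes. Their median edges lay at -306 and 386 bp from the TSS. Region levels are not comparable with window levels, since a window also averages over the background around the peak.

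The region of Psmd3 (chromosome 11, 98682082 to 98682713, -472 to 159 bp from the TSS) had the highest level, 5.53. Its signal was 0.565, 0.494, 0.589 and 0.674 CPM in 4HT cells in G1, ES, LS and G2, against 0.606, 0.543, 0.630 and 0.659 CPM in EtOH cells. Psmd8 followed at 4.14 (chromosome 7, 29180430 to 29180880), and Psmb3 at 3.91 (chromosome 11, 97703031 to 97703643). Both contain the motif matches printed above for these genes. Psmb7, the trypsin-like catalytic subunit, had the lowest region over a TSS, at 1.24, with 0.147, 0.158, 0.128 and 0.113 CPM in 4HT cells and 0.154, 0.119, 0.122 and 0.125 CPM in EtOH cells. The 4HT G1 and G2 values and the EtOH ES and LS values equalled the worth of 1 read, so these columns show no more than the floor.

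Psma6 and Psmb5 had no region over the TSS. The single region of Psma6 lay downstream, from 1731 to 2191 bp, at a level of 1.41. Psmb5, which encodes the chymotrypsin-like catalytic subunit and the target of proteasome inhibitor drugs, had 3 narrow regions of 130 to 275 bp on both sides of its TSS. The nearest (chromosome 14, 54618019 to 54618148) ended at -24 bp from the TSS and had a level of 3.25, with 0.161, 0.444, 0.440 and 0.264 CPM in 4HT cells in G1, ES, LS and G2, against 0.520, 0.281, 0.305 and 0.302 CPM in EtOH cells. The antioxidant response element core of Psmb5, at -47 to -39, lies within this region.

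Outside the TSSs, 18 regions were found in the 31 windows, 12 upstream and 6 downstream. Their median level was 1.43, and 10 of the 18 were read in every column. The highest after that of Psmb5 was a region of 218 bp at Psmd11, -2030 to -1813 bp from its TSS, at 3.21. Of the 31 members, 18 had 1 region, 10 had 2, and Psmb1, Psmb5 and Psmd1 had 3.

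**Figure D3:**
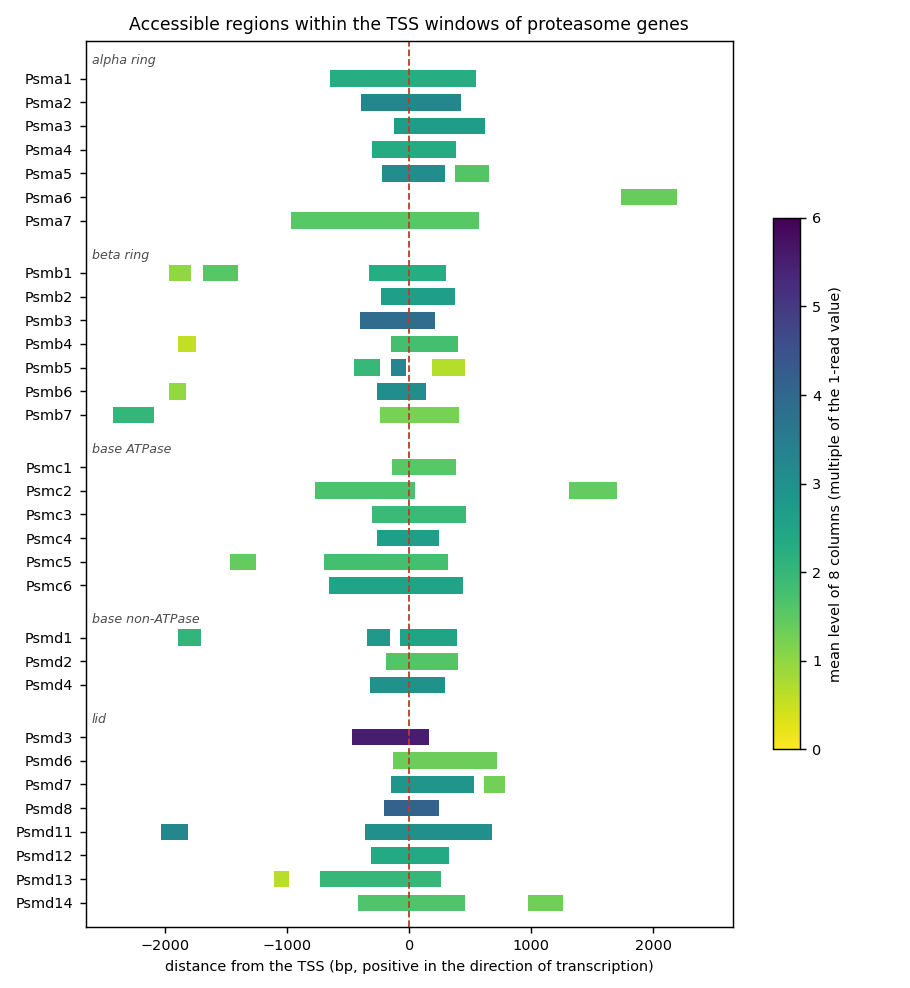
Accessible regions within the TSS window of each proteasome gene, drawn to scale by distance from the TSS (bp, positive in the direction of transcription); colour gives the mean level over 8 columns as a multiple of the 1-read value. In 29 of 31 genes a region crosses the dashed TSS line, and Psma6 and Psmb5 are the exceptions.

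Several members have a neighbour transcribed the other way within the window. The window of 6 of the 31 genes (19.4%, against 11.0% of protein-coding windows) also held the TSS of another protein-coding gene, on the opposite strand in all 6. Relative to the TSS of the member, that of the neighbour lay at -11 bp for Psmc2 (Dnajc2, a ribosome-associated chaperone), -19 bp for Psma7 (Ss18l1, a chromatin remodeller subunit), -101 bp for Psmc5 (Ftsj3, an rRNA methyltransferase) and -205 bp for Psma2 (Mrpl32, a mitochondrial ribosomal protein). It lay at -525 bp for Psmd13 (Sirt3, a mitochondrial deacetylase) and at -1612 bp for Psmb1 (Tbp, the TATA-binding protein). For 5 of the 6 a single accessible region spans both TSSs, and its signal cannot be assigned to either gene. Psmb1 and Tbp have separate regions, at -330 to 301 bp (level 2.29) and at -1693 to -1406 bp (level 1.58) from the TSS of Psmb1, and only the window holds both. The median level of the 6 windows was 1.55, against 1.64 for the other 25.

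Between 4HT and EtOH cells, no proteasome TSS window passed the test. Signals were compared as log2(signal + 0.1), centred across columns along the level by cyclic loess. The added 0.1 is of similar size to the signals of the members, so changes are understated for all of them, most for the lowest. A limma model with treatment and fraction was fitted over 15323 windows with a level of at least 1.3. It called 0 of the 29 members tested (smallest adjusted p 0.969), and 0 members had an unadjusted p under 0.05. Over all windows, 0.0131% were called and 5.28% had an unadjusted p under 0.05. The median difference of the members was -0.01, against 0.00 over all windows, and 14 of the 29 were above 0.

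The differences of the 29 tested members were small on this scale and ran from -0.15 to 0.11, with an SD across members of 0.07, against 0.09 over all windows. The outermost 95% limits of the 29 members were -0.33 and 0.29, or 1.25-fold lower and 1.22-fold higher on this scale. Because of the added 0.1, they are not limits on the fold change of the signal itself, which would be wider. With 0.02 added instead, the lowest member, Psmd12, moved from -0.15 to -0.21. By class, the median was -0.08 for alpha, 0.03 for beta, -0.03 for ATPase, -0.02 for other base and 0.01 for lid genes.

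The lowest value was that of Psmd12, a lid subunit (-0.15, SE 0.09, limma adjusted p 0.969). Its signal was 0.191, 0.194, 0.151 and 0.129 CPM in 4HT cells in G1, ES, LS and G2, against 0.176, 0.220, 0.210 and 0.156 CPM in EtOH cells. The groups overlapped, and after centring the 4HT value was the lower one in each fraction. Psmc1 was next (-0.14, SE 0.08, limma adjusted p 0.969), with 0.183, 0.121, 0.119 and 0.122 CPM in 4HT cells, against 0.1701, 0.140, 0.167 and 0.140 CPM in EtOH cells. It too was lower in 4HT cells in each fraction after centring, with overlapping groups.

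The highest value was that of Psmc3, an ATPase (0.11, SE 0.09, limma adjusted p 0.970). Its signal was 0.172, 0.177, 0.171 and 0.217 CPM in 4HT cells, against 0.143, 0.176, 0.155 and 0.161 CPM in EtOH cells. Psmd8 had a difference of 0.09 (SE 0.10, limma adjusted p 0.979), with 0.323, 0.193, 0.177 and 0.201 CPM in 4HT cells, against 0.207, 0.225, 0.161 and 0.199 CPM in EtOH cells. Its 4HT G1 value stood above the rest, and its sign differed between fractions. Without 1 fraction, the difference of Psmc3 ran from 0.066 to 0.18 and that of Psmd8 from 0.038 to 0.14.

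Members with the same sign in all 4 fractions were about as frequent as such windows among all windows. Psma2 was higher in 4HT cells in each fraction, 1 of 29, where 6.58% of all windows were. Psmb6, Psmc1 and Psmd12 were lower in each, 3 of 29, where 6.32% of all windows were. The groups did not overlap for 0 members, where 1.29% of all windows had separate groups with 4HT higher and 1.25% with 4HT lower. Within single fractions the median member differed by -0.08 in G1, 0.01 in ES, 0.01 in LS and -0.04 in G2, values of single pairs of columns that were not tested. Before centring, the median of all tested windows differed by 0.25, -0.09, -0.17 and 0.10 in these fractions and the median of the members by 0.16, -0.09, -0.15 and 0.03. The 4HT column had the lower depth of the pair in G1 and G2 and the higher depth in ES and LS. The part of depth in these shifts was not tested.

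**Figure D4:**
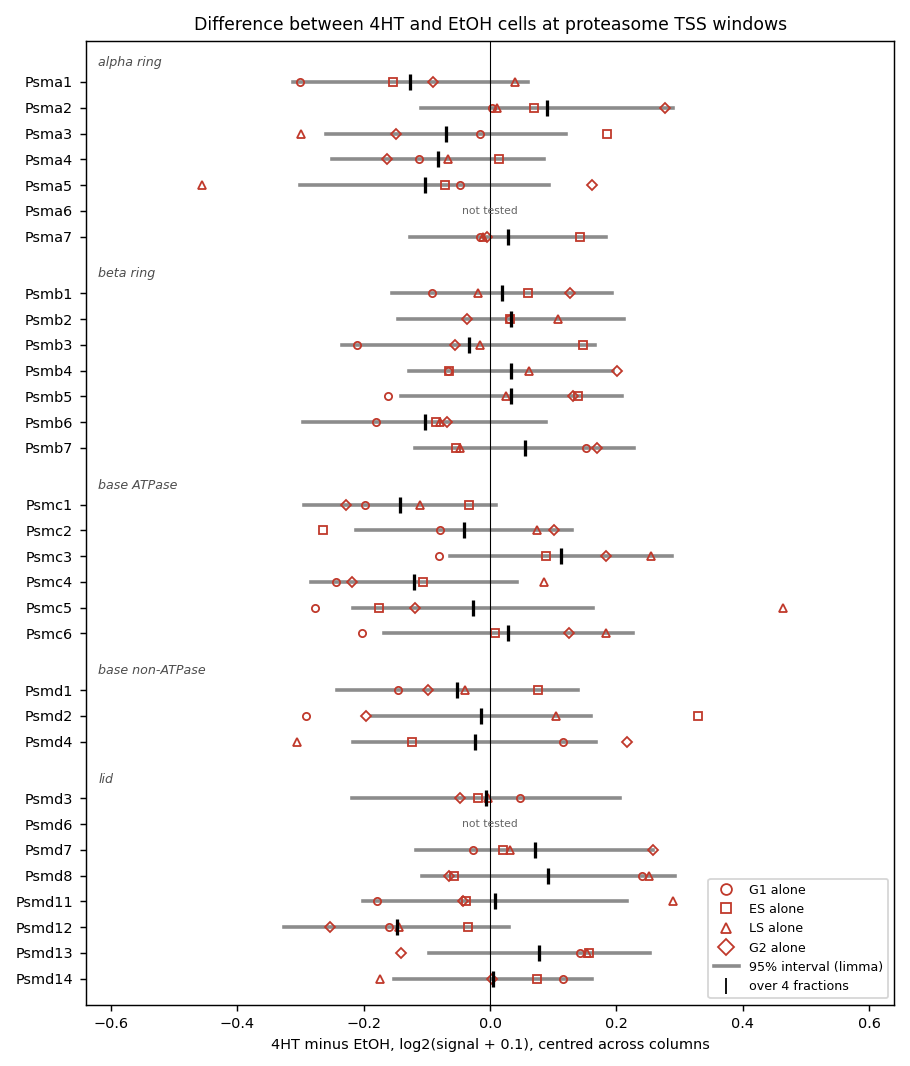
Difference between 4HT and EtOH cells at each proteasome TSS window (log2(signal + 0.1), centred; horizontal axis), with the difference in each fraction as open symbols, the value over the 4 fractions as a tick and its 95% limma interval as a grey bar. The intervals lie between -0.33 and 0.29; Psma6 and Psmd6 were below the minimum level and not tested.

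The accessible regions within the windows gave no call between 4HT and EtOH either. Of the 47, 24 passed the filter (level of at least 2 and no column without a read), 19 of them over a TSS. The filter passed 8.63% of all regions. Of these 24, limma called 0, where 0% of the 11010 tested regions were called, and 1 had an unadjusted p under 0.05, against 5.42% of all regions. The median difference was -0.05 (8 of 24 above 0), against 0.00 over all regions.

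The region with the unadjusted p under 0.05 lay at Psmd1, the large scaffold subunit of the base (chromosome 1, 86064273 to 86064460, -346 to -159 bp from the TSS). Its signal was 0.147, 0.117, 0.304 and 0.233 CPM in 4HT cells in G1, ES, LS and G2, against 0.357, 0.395, 0.552 and 0.283 CPM in EtOH cells. The difference was -0.73 (SE 0.21, limma adjusted p 0.887), with lower values in 4HT cells in 4 of 4 fractions. This held for 2 of the 24 regions, that of Psmd12 being the other, where 6.66% of all regions were lower in each fraction; 0 were higher in each, where 6.69% of all regions were. The groups overlapped in 1 pair of values, 4HT in LS above EtOH in G2, and 4HT in G1 was at the worth of 1 read. The region over the TSS of Psmd1, at -77 to 394 bp, had 0.147, 0.339, 0.313 and 0.210 CPM in 4HT cells, against 0.276, 0.314, 0.238 and 0.267 CPM in EtOH cells, with values on both sides. Its 4HT G1 value was also at the worth of 1 read. A further tested region of Psmd1, at -1898 to -1709 bp, went the other way. It had 0.332, 0.480, 0.210 and 0.135 CPM in 4HT cells, against 0.151, 0.119, 0.160 and 0.215 CPM in EtOH cells. The difference was 0.49 (SE 0.28, limma adjusted p 0.934), the highest of the 24 regions, with higher 4HT values in 3 of 4 fractions.

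The region over the TSS of Psmd12 (chromosome 11, 107479213 to 107479856) was the only one of the 24 whose groups did not overlap after centring. It had 0.282, 0.210, 0.239 and 0.132 CPM in 4HT cells, against 0.304, 0.317, 0.311 and 0.272 CPM in EtOH cells (difference -0.36, SE 0.20, limma adjusted p 0.934). On the deposited scale 4HT in G1 lay above EtOH in G2. Of all tested regions, 1.44% had separate groups with 4HT lower. This region makes up a part of the Psmd12 window described above, so both values share reads.

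Between the fractions, no member passed the test. The 3 comparisons with G1 share the G1 columns, and the 2 treatments served as repeats. In ES against G1, limma called 0 of 29 members, where 0.0196% of all windows were called. The median member differed by -0.03, against 0.00 over all windows, and 12 of 29 were above 0. Unadjusted, 1 member had a p under 0.05, where 6.78% of all windows did.

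That member was Psma5, an alpha subunit, which had 0.121 CPM in 4HT cells and 0.148 CPM in EtOH cells in ES, against 0.251 and 0.210 CPM in G1. The difference was -0.42 (SE 0.14, limma adjusted p 0.492), -0.44 in 4HT and -0.41 in EtOH cells. Its region over the TSS had 0.126 and 0.160 CPM in ES of 4HT and EtOH cells, against 0.398 and 0.406 CPM in G1, a difference of -1.02 (SE 0.30, limma adjusted p 0.509). Of the 24 regions, 0 were called, where 0% of all regions were, and 2 had an unadjusted p under 0.05 (7.13% of all regions). Besides that of Psma5 over its TSS, this was a region of Psmd11, -2030 to -1813 bp from the TSS. Its difference was -0.83 (SE 0.36, limma adjusted p 0.678), with -0.07 in 4HT and -1.58 in EtOH cells. Psma2 was the next lowest window (-0.28, SE 0.14), and the highest were Psmd14, the lid deubiquitinase (0.20, SE 0.11), and Psmd12 (0.18, SE 0.12).

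In LS against G1, limma called 0 of 29 members, where 0.0718% of all windows were called, and 2 had an unadjusted p under 0.05 (6.9% of all windows). The median member differed by -0.01, against 0.00 over all windows, with 14 of 29 above 0, and by 0.05 with median-of-ratios scaling in place of loess. Psmd8 had 0.177 and 0.161 CPM in LS of 4HT and EtOH cells, against 0.323 and 0.207 CPM in G1, a difference of -0.40 (SE 0.14, limma adjusted p 0.534). Its region over the TSS, which shares reads with the window, had 0.472 and 0.275 CPM in LS, against 0.766 and 0.469 CPM in G1 (difference -0.75, SE 0.30, limma adjusted p 0.617). Psmc4, an ATPase, had 0.180 and 0.196 CPM in LS of 4HT and EtOH cells, against 0.151 and 0.149 CPM in G1 (0.28, SE 0.11, limma adjusted p 0.621). Psma3 stood at 0.24 and Psmb2 at -0.16. Of the 24 regions, limma called 0, where 0% of all regions were called, and 1 had an unadjusted p under 0.05 (7.28% of all regions).

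In G2 against G1, limma called 0 of 29 members, where 0.0457% of all windows were called, and 3 had an unadjusted p under 0.05 (5.64% of all windows). The median member differed by 0.01, against 0.00 over all windows, with 15 of 29 above 0, and by -0.090 without centring. Psmb1, a structural beta subunit, had 0.238 and 0.190 CPM in G2 of 4HT and EtOH cells, against 0.179 and 0.151 CPM in G1, a difference of 0.33 (SE 0.12, limma adjusted p 0.758). Psma7 had 0.186 and 0.166 CPM in G2, against 0.163 and 0.122 CPM in G1 (0.30, SE 0.11, limma adjusted p 0.723). Both lie in windows shared with another gene, Tbp and Ss18l1. The third was Psmc3 (0.25, SE 0.12, limma adjusted p 0.864), and the lowest were Psmd8 (-0.21) and Psma4, an alpha subunit (-0.16). Of the 24 regions, limma called 0, where 0.0182% of all regions were called, and 0 had an unadjusted p under 0.05 (5.9% of all regions).

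The limits on these differences were wider than for the treatment. The outermost 95% limits over the 29 members were -0.70 and 0.43 for ES, -0.69 and 0.51 for LS, and -0.49 and 0.58 for G2, each against G1. For ES these limits are 1.63-fold lower and 1.35-fold higher on this scale. Both treatments gave a higher value in ES than in G1 for 10 members (26.6% of all windows) and a lower one for 11 (25.9%). For LS the counts were 9 (26.2%) and 7 (26%), and for G2 10 (25%) and 11 (26%).

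**Figure D5:**
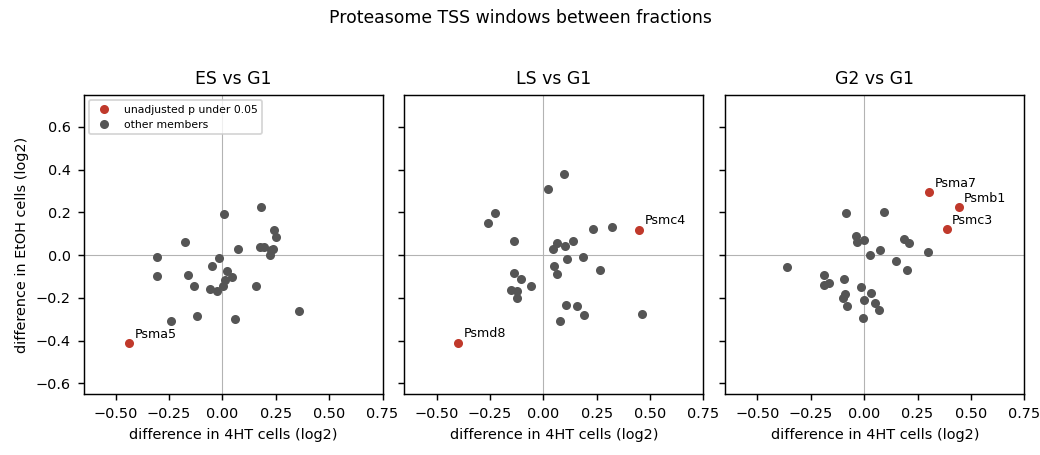
Difference of each of 29 proteasome TSS windows between a fraction and G1 (log2(signal + 0.1), centred), in 4HT cells (horizontal axis) and in EtOH cells (vertical axis); red marks members with an unadjusted p under 0.05. Psma5 lies at -0.44 and -0.41 in ES, Psmd8 at -0.40 and -0.41 in LS, and no member passed the adjusted threshold.

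The genes around the proteasome were read in the same fits, from 6 lists of 45 genes, of which 43 had a window and 39 were tested. In none of the 6 lists did limma call a gene in any of the 4 comparisons, where 0.0131% to 0.0718% of all windows were called. The regulators of proteasome transcription had a median level of 1.615 over 7 genes and a median difference between 4HT and EtOH of 0.02. Among them, Nfe2l1 itself stood at a level of 2.37, with 0.265, 0.189, 0.240 and 0.265 CPM in 4HT cells in G1, ES, LS and G2, against 0.273, 0.303, 0.248 and 0.274 CPM in EtOH cells (log2 difference -0.15, SE 0.11, limma adjusted p 0.970). On the deposited scale the 4HT value was the lower one in each fraction, while the groups overlapped. These signs include the shifts between columns. Before centring, the median of all tested windows differed by 0.25, -0.09, -0.17 and 0.10 in G1, ES, LS and G2. The share of all windows lower in each fraction on the deposited scale was not computed.

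The 8 assembly factors, chaperones that build the core and the base, had a median level of 1.44, near the protein-coding median of 1.35, and a median difference of 0.00, with Psmg1 the most distant (0.16, SE 0.10). The 4 activators with a window, caps that can replace the regulatory particle, had a median level of 1.395 and a median difference of 0.08, with Psme2 at 0.17 (SE 0.10). The 5 tissue-specific and inducible core subunits, which replace standard ones in immune cells, thymus and testis, had a median level of 1.51. Psmb8 (1.22) and Psmb11 (1.23) were under the minimum for testing, and of the 3 tested, Psma8, an alpha subunit of the testis, had the most distant difference (0.11, SE 0.08), against a list median of -0.02.

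The other subunits and proteasome-bound proteins had a median level of 1.83 over 10 genes and a median difference of -0.01 over 9 tested. Rad23b, a shuttle that brings ubiquitylated proteins to the proteasome, had the highest level of all 43 genes, 2.795, and Ube3c, a ubiquitin ligase bound to the proteasome, the most distant difference (-0.16, SE 0.10). The 9 genes of ubiquitin, its activation and the segregase had a median level of 1.91 and a median difference of 0.00 over 8 tested. Vcp, the segregase ATPase, stood at a level of 2.41, and Ufd1, its cofactor, had the most distant difference (-0.21, SE 0.11, limma adjusted p 0.954).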

How the data were processed

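The authors deposited coverage signal for accessible regions and for 5000 bp TSS windows, in 8 columns each. The submitters' processing notes name mm10, featureCounts and DESeq2 without saying what each tool did. The aligner is not given in the sources used here, nor is the coverage program. Columns carry no replicate number and were read as pooled over 2 libraries. From the values, the deposited signal was read as coverage in CPM averaged over covered bases, which the sources used here do not state. Intervals without a read have no value, and the smallest value of a column was taken as the worth of 1 read. A weak interval cannot fall below it, so losses are understated and weak intervals follow depth.

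Of 38087 windows, 38053 were distinct. TSSs came from the RefSeq promoter table for 25 members and, for 6 without a row (Psmb1, Psmb2, Psmb7, Psmc3, Psmd3 and Psmd7), from the gene end with a window within 650 bp. Intervals read in every column and with a level of at least 1.3 (windows, 15323) or 2 (regions, 11010) times the 1-read value were tested. Values were log2(signal + 0.1), centred by cyclic loess and fitted in limma 3.58.1 (R 4.3.3) with treatment and fraction as terms, 3 residual degrees of freedom, intensity trend, robust moderation and Benjamini-Hochberg adjustment over all intervals of the table at 0.05. The code was tested on simulated data. The members and lists were chosen with earlier results of these data known. Genes named are the 3 highest and lowest levels, the 2 highest and lowest differences of each comparison, members with an unadjusted p under 0.05, and the largest difference of each list; other names were chosen after their values were seen. Alternatives were other pseudocounts, filters, scalings and moderation, removal of 1 Mb domain medians, and fits without 1 fraction.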

Additional observations from a re-analysis of the deposited data

Results flagged for a closer look

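Of the 29 members tested, 3 had 1 fraction whose difference between 4HT and EtOH cells was flagged as apart from the others, where chance flags about 1 in 20. The flag is a Dixon ratio, the gap to the nearest other fraction divided by the range of all fractions. It therefore depends on how closely the other fractions agree, and does not pick the largest distances. Psmc5, at 0.46 in LS against -0.28, -0.18 and -0.12 in G1, ES and G2, was not flagged. Nor was Psma5, at -0.46 in LS against -0.05, -0.07 and 0.16. The share of all windows flagged was not computed. All flagged values are single pairs of pooled columns with no test.

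At Psmb6, the caspase-like catalytic subunit, the 4HT minus EtOH difference was -0.18 in G1 and -0.09, -0.08 and -0.07 in the other fractions. At Psma7, an alpha subunit whose window also holds the TSS of Ss18l1, it was 0.14 in ES and between -0.02 and -0.01 in the others. At Psmd13, a lid subunit whose window also holds the TSS of Sirt3, it was -0.14 in G2 and positive in the others.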

How the results depend on the processing

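The count of members called stayed at 0 in all 4 comparisons, for windows and for regions, under each of the settings that gave a value. Calls were rare over all intervals too. The main setting called 0.0131% to 0.0718% of all windows and 0% to 0.0182% of all regions, depending on the comparison. Between 4HT and EtOH, the settings called 0 to 4 windows in all. The stable 0 is therefore not a result about the members. For windows, the smallest adjusted p of a member over the settings ran from 0.901 to 0.9998 for 4HT against EtOH, from 0.335 to 0.9996 for ES against G1, from 0.432 to 0.9997 for LS against G1 and from 0.637 to 0.9999 for G2 against G1. The median difference of the members changed sign between settings in each comparison except ES against G1, where it stayed below 0. In 4 cases a median shifted by more than the SD between its pairs of columns: the median for ES against G1 was -0.096 as deposited without centring, and that for G2 against G1 was -0.073 with the higher level minimum, -0.090 as deposited and -0.032 with 1 Mb domain medians removed. The median for LS against G1 was 0.051 with median-of-ratios scaling. The cause was not tested. For the 2 highest and 2 lowest windows of each comparison the sign stayed in all 176 values. Other members named in a comparison, such as Psmc3 in G2, were not followed over the settings. The size followed the pseudocount: with other settings Psma5 in ES ran from -0.60 to -0.17, Psmd12 between treatments from -0.21 to -0.061 and Psmc1 from -0.22 to -0.053. Without 1 fraction, the median for 4HT against EtOH ran from -0.003 to 0.024 and the median level from 1.59 to 1.67. With no level filter, Psma6 and Psmd6 had differences between 4HT and EtOH of -0.12 (SE 0.07, limma adjusted p 0.956) and 0.04 (SE 0.07, limma adjusted p 0.987).

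No paired analysis was possible because the columns carry no replicate number and pool the replicates; for the same reason no replicate was left out. In the fit with domain medians removed, members with too few tested windows in their bin gave no value. Depth limits the weakest members most: at 6.78 M reads 1 read is worth 0.147 CPM in the 4HT G1 column, close to the whole signal of Psma6 there.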

Other observations

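The spread of the members across the 8 columns was close to that of other windows. The SD of the centred log2 signal over the 8 columns had a median of 0.13 over the 29 tested members, against 0.12 over all tested windows, and 15 of the 29 lay above that median. Psmd3, the lid gene with the highest level, had the smallest SD, 0.07, and Psma5, the alpha gene with low values in ES, the largest, 0.22. These SDs hold treatment, fraction and counting error together.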
